A study of Mus musculus with 12 samples.

Results

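Transcript levels of 38 genes of homologous recombination and of repair linked to alternative lengthening of telomeres (ALT) were examined in mouse embryonic stem cells with an altered Tin2 gene. The genes were picked by symbol, as genes of homologous recombination, the BLM complex, RPA, the Fanconi pathway and SMC5/6. No threshold on their values was used, but earlier results of these data were known. All 38 were among the 31641 genes of the deposited count table. The mutant lines, Mut-1 and Mut-2, are labelled Tin2 S341X, where X stands for a stop codon in place of a serine, and the lines they were set against, WT-1 and WT-2, are labelled wild type. Tin2 is the product of Tinf2, a subunit of the shelterin complex at telomeres, and the study asks what its loss does to ALT-associated features and to differentiation. All 4 lines were blastocyst-derived C57BL/6 cells kept in serum with LIF on feeder fibroblasts (MEFs), and the total RNA was that of the cultures, feeders included. Whether the allele is on both chromosomes, and whether a line is a single clone, is not given in the sources used here. Each line had 3 libraries that the study calls technical replicates, so the line was the unit of replication for the genotype.

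Homologous recombination repairs a DNA break by copying an intact duplex. The ends are first resected by nucleases, the single strand is coated by RPA, BRCA proteins help the strand invade the intact duplex, and the joint molecules are later dissolved by the BLM helicase complex or cut by nucleases. In ALT cells, which lengthen telomeres without telomerase, telomere DNA is copied from another telomere by such recombination and by break-induced replication.

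Libraries held 14766477 to 17891894 counts, and values below are depth-scaled counts (CPM after TMM normalization), which do not correct for gene length. Tinf2 had 19.6 to 30.1 CPM in the 6 mutant libraries and 57.6 to 69.1 CPM in the 6 wild-type libraries. It was thus lower in the lines labelled Tin2 S341X, a label that does not itself give a transcript level. All 10 markers of embryonic stem cells were detected, with a summed level of 5594 to 7055 CPM in mutant and 6220 to 7234 CPM in wild-type libraries. In the mutant lines 7 of the 10 were lower and 3 higher, with a median log2 fold change of -0.06. Only Utf1 had an unadjusted p under 0.05 in edgeR on line totals, and it was lower (log2 fold change -0.62). The 37 measured markers of feeder fibroblasts took 1.06% to 2.30% of the counts in mutant and 0.996% to 1.34% in wild-type libraries, and 37 of 37 were higher in the mutant lines, by a median log2 fold change of 0.58. In the mixed RNA of a culture, fewer cells of a type and less RNA per cell cannot be told apart. Markers of blood cells were higher in the mutant lines for 6 of 6 genes tested (median log2 fold change 0.47), those of primitive endoderm for 8 of 9 (0.55) and those of neural cells for 5 of 7 (0.09). In each of these 3 lists 3 markers had an unadjusted p under 0.05 in edgeR on line totals, all higher, and no marker was at 0 in every library. Their summed levels, in which a few genes weigh most, overlapped between mutant and wild-type libraries, at 292 to 403 against 239 to 376 CPM for blood, 85.6 to 128 against 83.6 to 134 CPM for primitive endoderm and 82.6 to 143 against 77.9 to 111 CPM for neural cells. The part of these cell types in the results below was not tested.

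Nearly the whole set lay slightly lower in the mutant lines, and no single gene passed the test over lines. In line totals (the 3 libraries of a line summed), 37 of the 38 recombination genes had a log2 fold change below 0, against 50.2% of all 18749 genes tested. The median log2 fold change of the 38 genes was -0.21, a level 13.4% lower, while the median over all genes tested was -0.0016. The values ran from -0.59 for Rmi2 to -0.02 for Rbbp8 among the lower genes, and Brca2 alone was above 0, at 0.27. With the quasi-likelihood test of edgeR and Benjamini-Hochberg adjustment over all genes, 0 of the 38 genes were called at an adjusted p under 0.05, and 0% of all genes were called in either direction. The smallest adjusted p among the 38 was 0.246. At an unadjusted p under 0.05, 10 of the 38 genes (26.3%) were lower and 0 higher, against 3.88% of all genes lower and 9.17% higher. These 10 were Rad54l, Dna2, Blm, Rpa1, Fanca, Xrcc2, Rmi2, Brca1, Wrn and Pold3. DESeq2 on the same totals called 0 of the 38 genes, against 0.456% of all genes lower and 2.1% higher.

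Both mutant lines lay below both wild-type lines for 28 of the 38 genes (73.7%), against 25% of all genes that averaged 2 CPM or more. Both mutant lines lay above both wild-type lines for 0 of the 38 genes, against 21.8% of all genes. A single gene measured in 2 lines against 2 cannot reach an exact two-sided permutation p below 0.333. Counted by library, 31 of the 38 genes (81.6%) had at least 1 mutant library below all 6 wild-type libraries, against 52.9% of all genes that averaged 2 CPM or more. No mutant library lay above all wild-type ones for 34 of the 38 (89.5%), against 49.4% of all genes. Full separation of the 6 mutant from the 6 wild-type libraries was seen for Blm only, 1 of 38 (2.63%), lower in the mutants, against 0.91% of all genes that averaged 2 CPM or more separated that way and 1.51% the other way. Without WT-1 replicate 3, a further 4 genes separated, Palb2, Bard1, Dna2 and Fanca, making 5 of 38 (13.2%) lower, against 1.68% of all genes lower and 2.52% higher, and the median log2 fold change of the set was -0.23. This was the largest number of separated genes with any 1 library left out, the range being 1 to 5. The WT-1 libraries then left, replicates 1 and 2, were the closest pair within a line. Without the 3 libraries of highest feeder share 2 of 38 genes (5.26%) separated, Blm and Xrcc3, against 3% of all genes lower and 3.92% higher. None of the 38 genes lies on chromosome 14, which carries Tinf2 and where 376 of 386 genes were higher in the mutant lines, and without its genes 36 of the 38 were below 0, with a median of -0.18. Of the 38 genes 7 lie on chromosome 11 and 5 on chromosome 12.

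**Figure D1:**
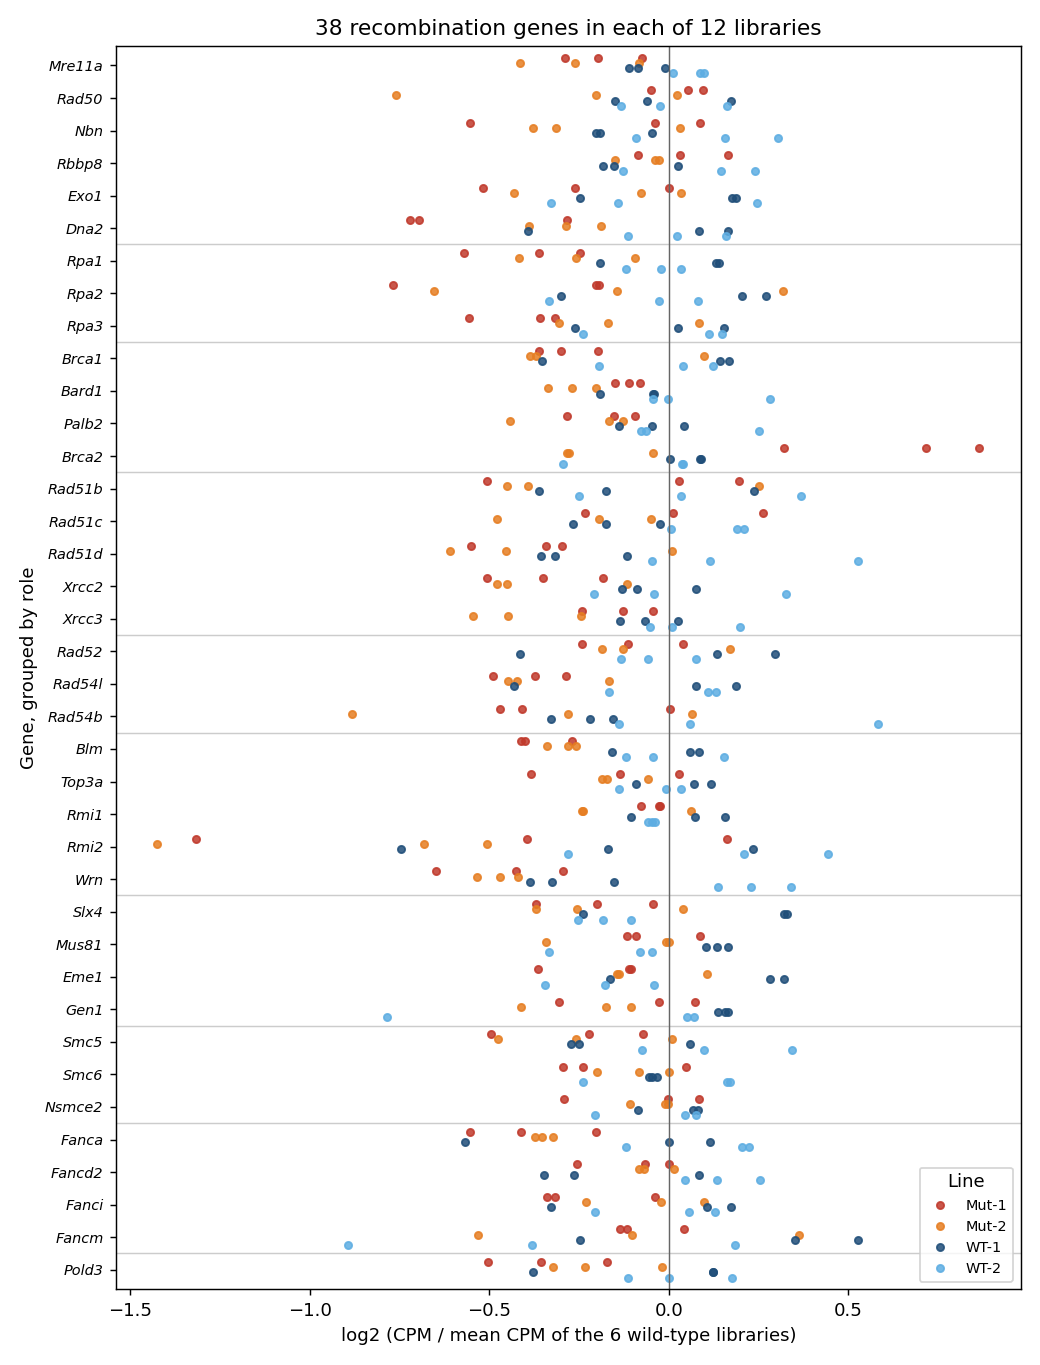
Each row is a recombination gene, grouped by role, and each point a library, placed by the log2 ratio of its CPM to the mean CPM of the 6 wild-type libraries. Mut-1 and Mut-2 points lie mostly left of 0, Brca2 in Mut-1 lies to the right, and Blm is the gene whose mutant points are all left of its wild-type points.

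Among genes that process DNA ends, Dna2, a nuclease and helicase of long-range resection, had 59.4 CPM in Mut-1 and 72.7 CPM in Mut-2, against 87.2 CPM in WT-1 and 90.6 CPM in WT-2. Its log2 fold change was -0.43 (SE 0.13, adjusted p = 0.246 in edgeR), and its libraries had 53.8 to 77.7 CPM (median 70.1) in the mutants and 67.5 to 99.2 CPM (median 91.9) in wild type. Only WT-1 replicate 3, at 67.5 CPM, reached into the mutant range. Exo1, the exonuclease that acts beside it, averaged 57.3 ± 3.19 CPM in mutant lines and 66.5 ± 3.54 CPM in wild-type lines (SD, n = 2 lines each, as for all means of lines). Mre11a, the nuclease of the MRN complex that first binds the end, averaged 61.5 ± 1.502 and 72.0 ± 4.33 CPM in mutant and wild-type lines, and 4 of its 6 mutant libraries lay below all 6 wild-type libraries. Its partners differed less. Rad50, the ATPase that bridges the ends, had 54.3 and 45.1 CPM in Mut-1 and Mut-2, against 53.8 and 53.9 CPM in WT-1 and WT-2, and Nbn, which recruits the kinase ATM, had 18.1 and 17.5 CPM, against 18.5 and 22.2 CPM. Rbbp8, which encodes CtIP, the cofactor that starts resection, averaged 32.5 ± 1.36 CPM in mutant lines and 33.04 ± 2.86 CPM in wild-type lines, the smallest difference of the 38 genes.

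The 3 genes of RPA, the complex that coats single-stranded DNA, were the most highly expressed of the set per kilobase of exon. Rpa1 averaged 41.7 ± 3.07 CPM per kilobase in the mutants and 52.6 ± 1.86 in wild type, Rpa2 35.1 ± 4.38 and 41.9 ± 3.45, and Rpa3 33.8 ± 4.90 and 40.9 ± 0.715. On the CPM scale Rpa1, the large subunit, had 221 and 245 CPM in Mut-1 and Mut-2, against 301 and 286 CPM in WT-1 and WT-2 (log2 fold change -0.33, SE 0.11, adjusted p = 0.271 in edgeR). Of its 6 mutant libraries 5 lay below all 6 wild-type libraries, and the exception was Mut-2 replicate 3, at 274 CPM. Rpa2 spread widely, from 73.5 to 156 CPM in mutant lines and from 99.3 to 151 CPM in wild-type lines, with Mut-2 replicate 3 the highest of the 12. Without the 3 libraries of highest feeder share its log2 fold change was 0.09, against -0.26 with all libraries.

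The BRCA mediators, which act after RPA has coated the strand, included the only gene of the set with a fold change above 0. Brca2, whose product acts on RPA-coated strands, spans bases 150522630 to 150570329 of chromosome 5 (GRCm38, plus strand). Replicates 1, 2 and 3 had 137, 199 and 180 CPM in Mut-1, while Mut-2 had 89.8, 106 and 90.3 CPM. The wild-type lines had 110, 116 and 116 CPM (WT-1) and 89.3, 112 and 112 CPM (WT-2). Mut-1 alone stood apart: its 3 libraries lay above the other 9. Those of Mut-2 lay within the wild-type range only through WT-2 replicate 1, at 89.3 CPM, and below the other wild-type libraries, which had 110 to 116 CPM. In a joint edgeR fit of all 12 libraries by line, whose p-values measure only how libraries of a line vary, Brca2 fell in Mut-2 against Mut-1 (log2 fold change -0.85, SE 0.15, adjusted p = 0.0295). It was 1 of the 38 genes called in that comparison (2.63%), against 0.212% of all 16533 genes called lower and 0.0484% called higher. The call ended without any 1 of the 6 libraries compared other than Mut-1 replicate 1 and without WT-1 replicate 1 or 2, which enter the shared dispersion, as well as with a term for the feeder share (adjusted p = 0.0537) or when the 3 feeder-rich libraries were left out (0.208), with log2 fold changes of -1.08 to -0.74 over all alternatives. Against WT-1, Brca2 in Mut-1 had a log2 fold change of 0.59 (SE 0.15) that did not pass (adjusted p = 0.156). It passed in 2 of 18 alternatives, and the adjusted p ranged from 0.0196 to 0.744 over them.

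Genes around Brca2 had higher levels in Mut-1 as well. All 27 genes averaging 5 CPM or more that start within 5 Mb of Brca2 lay above the mean of the other 3 lines in Mut-1, by a median log2 difference of 0.56. The 552 genes of chromosome 5 that lie more than 20 Mb before it had a median difference of -0.03, as did the genes of the other autosomes. One of the neighbours, Rfc3, a subunit of the clamp loader of replication, had 57.0 CPM in Mut-1 and 39.1 CPM in Mut-2, against 45.1 CPM in WT-1 and 44.3 CPM in WT-2. The part of this regional difference in the level of Brca2 was not tested.

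The 250 bases before the RefSeq start of Brca2 (chr5:150522371-150522620, GRCm38.p6, plus strand, sequence from RefSeq) are shown because Brca2 differed from the rest of the set in direction and because they hold a motif of E2F, the transcription factor family of the G1 to S transition. Capitals mark the match to TTTCCCGC on the opposite strand.
Brca2 promoter: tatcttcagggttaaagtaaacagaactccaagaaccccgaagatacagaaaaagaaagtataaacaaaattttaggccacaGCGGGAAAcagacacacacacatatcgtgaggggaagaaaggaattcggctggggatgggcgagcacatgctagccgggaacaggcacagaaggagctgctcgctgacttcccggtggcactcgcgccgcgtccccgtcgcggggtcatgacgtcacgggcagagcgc

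The other mediators were lower. Brca1, the ubiquitin ligase that acts in resection and mediator loading, had 93.4 and 99.3 CPM in Mut-1 and Mut-2, against 116 and 115 CPM in WT-1 and WT-2 (log2 fold change -0.26, SE 0.10, adjusted p = 0.335 in edgeR). Its libraries overlapped through 2 of the 12, Mut-2 replicate 3 at 123.2 CPM and WT-1 replicate 3 at 90.04 CPM. Bard1, its obligate partner, averaged 65.4 ± 4.39 CPM in mutant lines and 75.1 ± 6.24 CPM in wild-type lines. Palb2, which joins BRCA1 to BRCA2, averaged 29.2 ± 0.658 and 33.9 ± 1.43 CPM in mutant and wild-type lines, with 4 of 6 mutant libraries below all wild-type libraries.

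The genes of the paralog complexes (Rad51b, Rad51c, Rad51d, Xrcc2 and Xrcc3), which assist strand invasion, were lower in the mutants for 5 of 5 genes, with a median log2 fold change of -0.27. Xrcc2 was the most even of them between lines of a genotype, at 21.6 and 22.0 CPM in Mut-1 and Mut-2, against 26.9 and 28.4 CPM in WT-1 and WT-2 (log2 fold change -0.34, SE 0.13, adjusted p = 0.321 in edgeR). Xrcc3, its relative in a second paralog complex, averaged 27.4 ± 3.37 and 33.1 ± 1.67 CPM in mutant and wild-type lines, and each of the 2 genes had 4 of 6 mutant libraries below all wild-type libraries. Rad51d differed mainly from WT-2, with 17.0 and 18.3 CPM in Mut-1 and Mut-2 and 19.03 and 26.4 CPM in WT-1 and WT-2. Rad51c, the partner of Xrcc3, overlapped between genotypes at 25.6 and 22.1 against 23.2 and 28.1 CPM, and Rad51b was low in all lines, at 7.41 to 7.77 CPM in mutant lines and 7.79 to 8.55 CPM in wild-type lines. The paralogs' median log2 fold change was -0.08 in Mut-1 over WT-1 and, in the other pair, -0.38 in Mut-2 over WT-2. Between the wild-type lines, WT-2 against WT-1, it was 0.15, and the difference between the pairs was called for 0 of the 5 genes in edgeR.

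Rad54l, the motor protein of strand invasion, tied with Dna2 for the smallest adjusted p of the set. It had 42.4 CPM in Mut-1 and 43.9 CPM in Mut-2, against 54.7 CPM in WT-1 and 57.2 CPM in WT-2 (log2 fold change -0.37, SE 0.11, adjusted p = 0.246 in edgeR). Its libraries had 39.7 to 49.7 CPM (median 42.3) in the mutants and 41.3 to 63.4 CPM (median 59.4) in wild type, and WT-1 replicate 3 was the wild-type library at 41.3 CPM. Its exons share 15.4% of their bases with the antisense gene Lrrc41, and since the strand setting of the counting is not given in the sources used here, reads of the pair cannot be told apart there. Rad54b, a second member of the family, had 29.8 and 29.4 CPM in the mutant lines and 31.0 and 41.6 CPM in WT-1 and WT-2, and 35.8% of its exon bases overlap Fsbp on the same strand. Exons of Fanca, Fanci, Eme1, Rmi1, Mre11a, Mus81, Fancd2 and Xrcc3 also share bases with antisense genes. The limit given for Rad54l applies to those shared bases as well. Rad52, which anneals single strands and acts in break-induced telomere synthesis, was low and similar in all lines, at 11.6 ± 0.383 CPM in mutant lines and 12.3 ± 0.449 CPM in wild-type lines.

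The dissolution complex and WRN had the lowest median of the roles with more than 1 gene, -0.34 over 5 genes, all of them lower. Their summed level was 177 to 195 CPM in the 6 mutant libraries and 203 to 240 CPM in the 6 wild-type libraries, with no overlap. Without Blm, the largest part of the sum, the other 4 genes summed to 85.5 to 98.4 CPM in mutant and 98.9 to 112 CPM in wild-type libraries, a gap narrower than the spread within either genotype. Each of the 4 overlapped when taken singly. Blm, the helicase that moves crossed strands together and whose human counterpart is lost in Bloom syndrome, spans bases 80454733 to 80535119 of chromosome 7 (GRCm38, minus strand). Replicates 1, 2 and 3 had 87.5, 96.6 and 88.2 CPM in Mut-1, while Mut-2 had 95.9, 92.0 and 97.3 CPM. WT-1 had 121, 123.3 and 104 CPM, and WT-2 had 129.5, 113 and 107 CPM. The 2 lines of each genotype were close, at 92.5 ± 3.96 CPM in mutant lines and 117 ± 0.0462 CPM in wild-type lines, and the highest mutant library stayed below the lowest wild-type one. The line totals gave a log2 fold change of -0.34 (SE 0.10) and an adjusted p of 0.256 in edgeR. In limma-voom, run on all 12 libraries with a random block for line, Blm fell (log2 fold change -0.33, SE 0.08, adjusted p = 0.0431), as 1 of the 38 genes (2.63%), against 0.267% of all 15702 genes called lower and 1.17% called higher. There the estimated within-line correlation was -0.00200, so this fit treated the 12 libraries as independent samples and took no account of how lines of a genotype vary. Of 15 alternatives to this fit, all but the one with the feeder share chosen after the data were seen, Blm passed in 3. The adjusted p was 0.260 with the feeder share in the model, 0.344 without the 3 libraries of highest feeder share and 0.0367 to 0.133 without any 1 library, and the log2 fold change stayed between -0.37 and -0.30.

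The 129 bases before the annotated gene of Blm (chr7:80535120-80535248, GRCm38.p6, minus strand, sequence from RefSeq) are shown because Blm was the gene that separated all libraries. Capitals mark CCAAT, the box bound by NF-Y, once on each strand, and the window holds no E2F motif of those searched.
Blm promoter: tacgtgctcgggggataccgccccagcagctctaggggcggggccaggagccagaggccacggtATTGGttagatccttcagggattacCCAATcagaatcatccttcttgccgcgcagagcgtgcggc

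Wrn, a RecQ helicase and exonuclease that acts at telomeres and whose human counterpart is lost in Werner syndrome, spans bases 33234384 to 33385527 of chromosome 8 (GRCm38, minus strand). Replicates 1, 2 and 3 had 16.6, 18.2 and 14.3 CPM in Mut-1, while Mut-2 had 16.7, 16.1 and 15.4 CPM, against 17.8, 17.1 and 20.1 CPM for WT-1 and 24.5, 26.2 and 28.3 CPM for WT-2. WT-2 was the line that stood apart, with each library above the other 9, while Mut-1 and WT-1 overlapped. In the 12-library edgeR fit Wrn fell in Mut-2 against WT-2 (log2 fold change -0.71, SE 0.14, adjusted p = 0.0349), the 1 gene of the 38 called there (2.63%), against 0.194% of all 16533 genes called lower and 0.732% called higher. For Mut-1 against WT-1 the log2 fold change was -0.17 (SE 0.14, adjusted p = 0.649), and the difference between the pairs did not pass (0.55, SE 0.20, adjusted p = 0.549). Between the wild-type lines, WT-2 against WT-1, it was 0.52 (SE 0.14, adjusted p = 0.436). The call for Mut-2 against WT-2 was lost without any 1 of its own 6 libraries, without WT-1 replicate 1 or 2, with a term for the feeder share (adjusted p = 0.0694) and without the 3 feeder-rich libraries (0.261), and it held in 8 of 18 alternatives, with log2 fold changes of -0.78 to -0.66. Of the other genes of chromosome 8, 480 of 599 also had more CPM in WT-2 than WT-1, with a median log2 difference of 0.16, against -0.02 for the other autosomes, and the part of this in the level of Wrn was not tested.

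**Figure D2:**
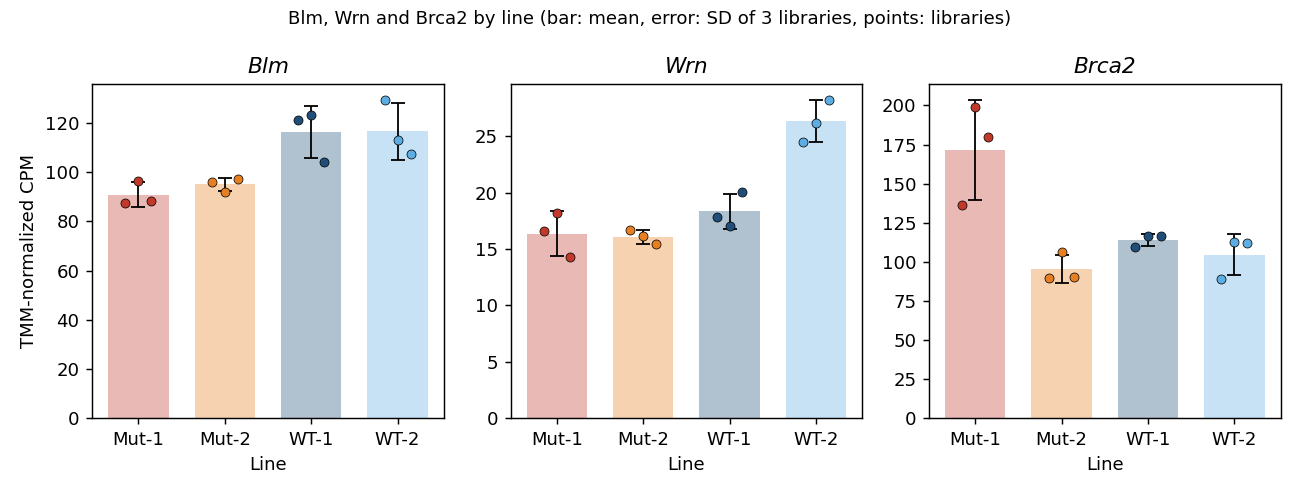
CPM of Blm, Wrn and Brca2 in the 4 lines: bars are means of 3 libraries, error bars their SD and points the libraries in the order of replicates 1 to 3. Blm is lower in both mutant lines, Wrn is high in WT-2 (24.5 to 28.3 CPM) and Brca2 is high in Mut-1 (137 to 199 CPM).

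Of the partners of BLM, Top3a and Rmi1 had smaller fold changes than Blm. Top3a, the topoisomerase that decatenates the joint molecule, averaged 33.6 ± 0.605 CPM in mutant lines and 37.5 ± 1.39 CPM in wild-type lines. Rmi1, its scaffold, averaged 37.5 ± 1.11 and 40.0 ± 1.98 CPM in mutant and wild-type lines. Rmi2, the small subunit, had the largest fold change of the set (log2 fold change -0.59, SE 0.23, adjusted p = 0.333 in edgeR) and also the lowest level, 1.12 ± 0.231 CPM per kilobase of exon in the mutants and 1.69 ± 0.272 in wild type. Its libraries overlapped, from 2.81 to 8.43 CPM in mutant lines and from 4.50 to 10.2 CPM in wild-type lines.

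The structure-specific nucleases, which cut joint molecules, were lower for 4 of 4 genes by small amounts, and in each the level in WT-1 was above that of the other 3 lines. Slx4, the scaffold, had 35.03 and 36.0 CPM in Mut-1 and Mut-2 and 45.4 and 35.9 CPM in WT-1 and WT-2. Eme1, the partner of the MUS81 nuclease, had 35.7 and 39.5 CPM in the mutant lines, against 46.2 and 36.4 CPM in WT-1 and WT-2. Mus81 itself had 17.1 and 16.5 CPM, against 19.5 and 16.0 CPM, and Gen1, the resolvase that acts without them, 20.1 and 18.3 CPM, against 24.1 and 19.03 CPM. The nucleases' median log2 fold change was accordingly -0.29 for Mut-1 against WT-1, 0.02 for Mut-2 against WT-2 and -0.33 for WT-2 against WT-1. Eme1, Gen1 and Mus81 had log2 fold changes of 0.06, 0.03 and 0.08 when WT-1 was left out.

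The SMC5/6 complex, a ring-shaped SUMO ligase holder that brings ALT telomeres to PML bodies, had 3 of 3 genes lower. Smc5 averaged 82.4 ± 2.28 CPM in mutant lines and 97.5 ± 12.6 CPM in wild-type lines, with WT-2 high at 106 CPM, and Smc6 averaged 83.1 ± 3.36 and 91.4 ± 3.37 CPM in mutant and wild-type lines. Smc6 starts at 11265886 on the plus strand of chromosome 12, next to Gen1, which starts at 11265801 on the minus strand (GRCm38), and the 2 genes had log2 fold changes of -0.14 and -0.17. Nsmce2, the SUMO ligase, was at 47.7 ± 1.03 CPM in mutant lines and 50.02 ± 1.18 CPM in wild-type lines.

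Of the Fanconi genes, which act at DNA crosslinks and stalled forks, Fanca, a core complex subunit, had 49.3 and 51.4 CPM in Mut-1 and Mut-2, against 60.1 and 70.8 CPM in WT-1 and WT-2 (log2 fold change -0.38, SE 0.12, adjusted p = 0.272 in edgeR). WT-1 replicate 3, at 44.0 CPM, was below all 6 mutant libraries, which had 44.4 to 56.6 CPM, while the other 5 wild-type libraries had 60.1 to 76.2 CPM. Fancd2 and Fanci, the pair that is ubiquitinated at a stalled fork, averaged 74.7 ± 2.94 and 67.3 ± 7.08 CPM in the mutants, against 79.3 ± 11.3 and 74.2 ± 0.0767 CPM in wild-type lines. As stated above, exons of Fanca, Fancd2 and Fanci share bases with antisense genes, whose reads cannot be told apart there. Fancm, the translocase that remodels forks and restrains ALT in human cells, was the least even gene in wild type, from 33.6 to 89.9 CPM over the 6 libraries and from 43.2 to 80.3 CPM in the mutants. Pold3, the subunit of polymerase delta on which break-induced replication depends, had 85.1 and 95.7 CPM in Mut-1 and Mut-2, against 107 and 111 CPM in WT-1 and WT-2 (log2 fold change -0.28, SE 0.11, adjusted p = 0.344 in edgeR). It was the fourth most highly expressed of the 38 genes per kilobase of exon, after the 3 RPA genes.

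The set was also compared line by line. For Mut-1 against WT-1, 31 of the 38 genes were below 0 with a median log2 fold change of -0.17, and 0 were called in the 12-library edgeR fit, against 0.0302% of all genes called lower and 0.296% called higher. At an unadjusted p under 0.05, 7 of the 38 (18.4%) were lower and 1 (2.63%) higher, against 4.81% of all genes lower and 6.47% higher. DESeq2 called 0, against 0.29% of all genes lower and 1.04% higher. For Mut-2 against WT-2, 35 of the 38 were below 0 with a median of -0.21. At an unadjusted p under 0.05, 13 of the 38 (34.2%) were lower, Wrn among them, and 0 higher, against 5.45% of all genes lower and 9.67% higher. DESeq2 called 3 of the 38 (7.89%), Wrn, Xrcc3 and Bard1, all lower, against 1.47% of all genes lower and 2.7% higher. The 2 pairs share no library, and 28 of the 38 genes were below 0 in both, 7 below 0 only for Mut-2, 3 only for Mut-1 and 0 in neither. RPA genes had a median of -0.42 in the first pair and -0.14 in the second. The difference between the pairs was called for 0 of the 38 genes in edgeR (Brca2 the foremost with an adjusted p of 0.417), against 0.0484% and 0.0242% of all genes called higher and lower. At an unadjusted p under 0.05 it was 3 of 38 above 0 (Brca2, Wrn and Rad51c) and 1 below (Eme1), against 4.15% of all genes above and 3.93% below, and DESeq2 called 0, against 0.381% and 0.169%.

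Lines of the same genotype showed no common direction. For WT-2 against WT-1, 24 of the 38 genes were above 0 and 14 below, with a median log2 fold change of 0.05. Of these 0 were called in edgeR, against 0.0181% of all genes higher and 0% lower. At an unadjusted p under 0.05, 3 were higher and 1 lower, against 4.17% of all genes higher and 3.44% lower, and DESeq2 called 0, against 0.189% and 0.227%. For Mut-2 against Mut-1, 22 were above 0 and 16 below, with a median of 0.02. Relative to the mean of the 4 lines, the median of the 38 genes was -0.10 in Mut-1, -0.09 in Mut-2, 0.08 in WT-1 and 0.14 in WT-2.

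**Figure D3:**
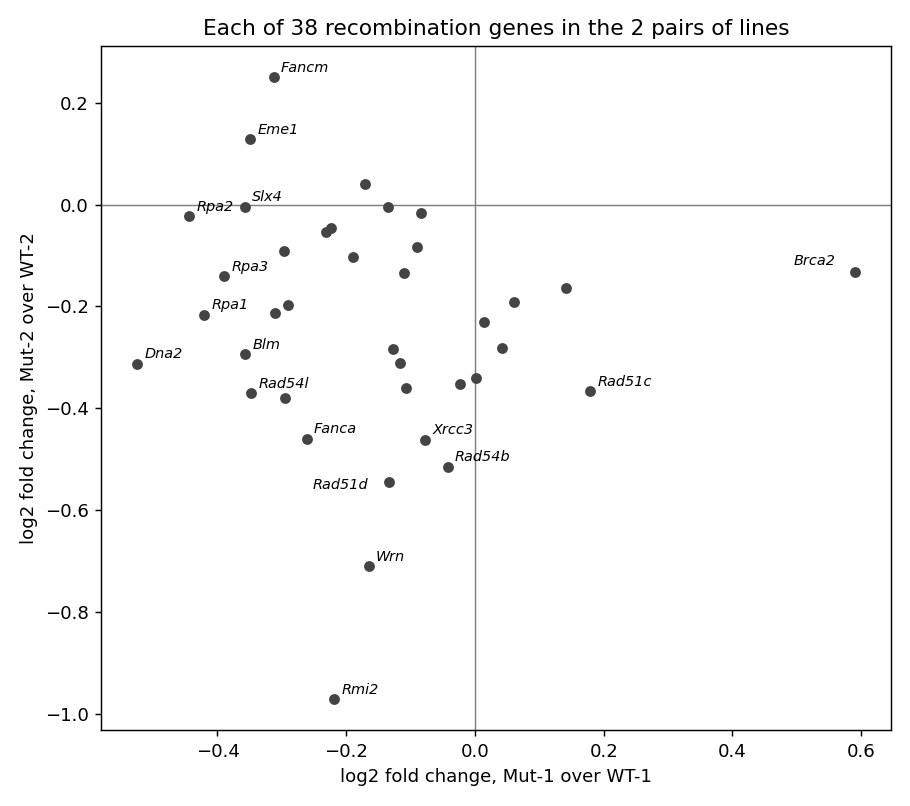
Each point is 1 of the 38 genes, placed by its log2 fold change for Mut-1 over WT-1 (x axis) and for Mut-2 over WT-2 (y axis) in the 12-library fit. Most points, 28 of 38, are below 0 on both axes, Brca2 lies far to the right, Wrn and Rmi2 lie low, and no point is above 0 on both.

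The whole set took 0.193% to 0.216% of the counts in the mutant libraries and 0.207% to 0.244% in the wild-type libraries. Relative to the mean of the 12 libraries, the median log2 level of the 38 genes was below 0 in all 6 mutant libraries, from -0.17 to -0.05, and above 0 in 5 of 6 wild-type libraries, from 0.06 to 0.17. The exception was WT-1 replicate 3, at -0.03, which had the highest feeder share of the wild-type libraries, 1.34%. Feeder share moved with the genotype, at 1.52% and 1.79% in Mut-1 and Mut-2, against 1.15% and 1.19% in WT-1 and WT-2. Once the feeder share was a term of the limma fit, 30 of the 38 genes were below 0, and the median log2 fold change was -0.16, compared with -0.20 in the fit lacking it. That fit called 0 of the 38 genes, where it called 0.0127% of all genes lower and 0.248% higher. On line totals without the 3 libraries of highest feeder share, 31 were below 0, with a median of -0.15. Mut-1 replicate 3, with a feeder share of 1.06%, and Mut-1 replicate 2 and Mut-2 replicate 3, with 1.23% and 1.26%, had medians of -0.10, -0.05 and -0.08. WT-2 replicates 1 and 2, with 1.28% each, had 0.17 and 0.14. WT-1 replicates 1 and 2, with 1.03% and 1.06%, had 0.13 and 0.16, and WT-2 replicate 3, with 0.996%, had 0.06. The part of the feeder share in the level of the set was not tested.

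Replication genes, of which 38 were listed, lay lower as well, with 36 of 38 below 0 in line totals and a median log2 fold change of -0.23. At an unadjusted p under 0.05 in edgeR on line totals, 14 of these 38 were lower and 0 higher, against 10 and 0 of the 38 recombination genes. Full separation of the libraries, lower in the mutants, was seen for 2 of 37 replication genes, against 1 of 38 recombination genes. By library the median of the replication genes was -0.31, 0.02 and -0.07 in replicates 1, 2 and 3 of Mut-1 and -0.26, -0.12 and 0.13 in those of Mut-2. It was 0.18, 0.18 and -0.08 in WT-1 and 0.07, 0.20 and 0.11 in WT-2. The mutant and wild-type libraries overlapped on this measure, Mut-2 replicate 3 lying above 3 of the wild-type libraries. The replication genes' median was -0.07 in limma once the feeder share was a term. Their part in the level of the recombination genes was not tested.

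**Figure D4:**
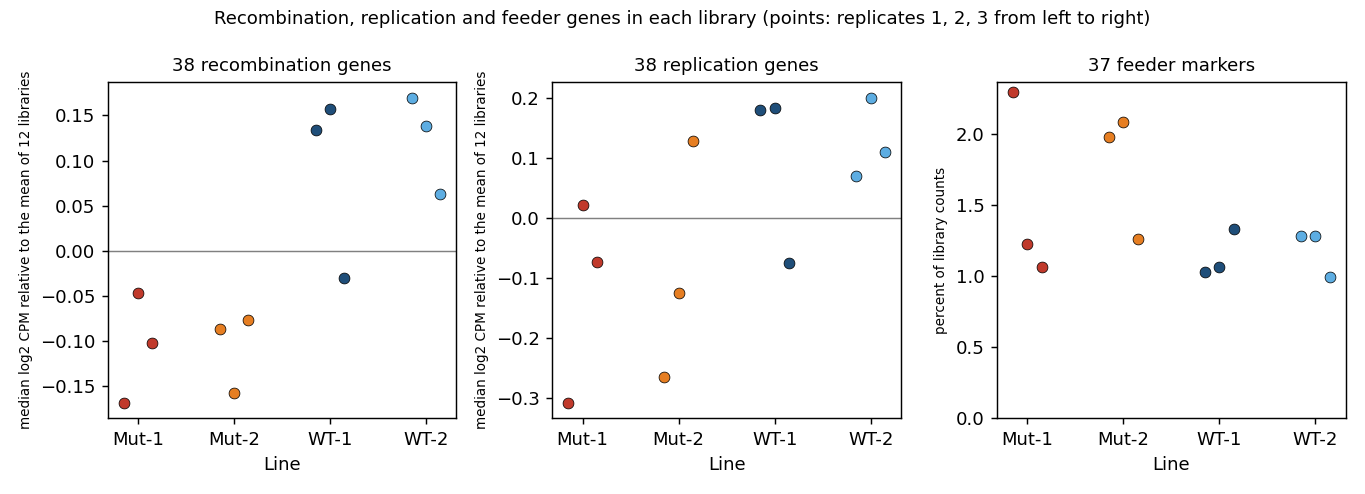
For each library, in the order of replicates 1 to 3 within a line, the panels show the median log2 CPM of the 38 recombination genes and of the 38 replication genes relative to the mean of the 12 libraries, and the percentage of counts on the 37 feeder markers. The recombination genes are below 0 in all 6 mutant libraries and in WT-1 replicate 3, and 3 mutant libraries have feeder shares of 1.98% to 2.30%.

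Genes of the same and neighbouring pathways were also mostly lower in all lists but that of other SMC5/6 and polymerase delta genes. Of the 133 measured 0 were called on line totals in edgeR. Among all genes tested 50.2% were below 0. Of the other recombination genes 21 of 26 were below 0 (median log2 fold change -0.12), among them BC030867, whose product takes part in loading a helicase that acts in recombination, at 54.5 ± 2.83 CPM in mutant lines and 67.1 ± 2.79 CPM in wild-type lines. Of the other Fanconi genes 11 of 14 were below 0 (median -0.16). Among them the core complex gene Fance averaged 39.7 ± 1.12 and 49.3 ± 3.91 CPM in mutant and wild-type lines, and the ubiquitin ligase Rfwd3, which acts on RPA, 144 ± 4.42 and 177.5 ± 20.1 CPM. Of the other SMC5/6 and polymerase delta genes 5 of 9 were below 0 (55.6%, median -0.05), near the share over all genes, and 4 were above 0. The catalytic subunit Pold1, the one of smallest p in this list, had 139.6 ± 14.2 CPM in mutant lines and 188 ± 5.62 CPM in wild-type lines. Checkpoint kinases and mediators were below 0 for 16 of 16 genes (median -0.22), and their summed level, 990 to 1119 CPM in mutant and 1183 to 1215 CPM in wild-type libraries, was the 1 of 7 such sums that did not overlap. Hus1, a subunit of the clamp that activates ATR, had 47.8 ± 1.23 CPM in mutant lines and 62.2 ± 1.004 CPM in wild-type lines and fell in the limma fit of 12 libraries (adjusted p = 0.0290). End joining genes were below 0 for 15 of 18 (median -0.16), and Xrcc6, the Ku70 subunit of the end-binding complex, fell in the limma fit (61.5 ± 4.52 against 81.9 ± 1.56 CPM in mutant and wild-type lines, adjusted p = 0.0293).

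Among chromatin and PML body genes linked to ALT, 11 of 12 were below 0, with a median log2 fold change of -0.13. Asf1b, a histone chaperone, fell in the limma fit (log2 fold change -0.55, SE 0.13, adjusted p = 0.0476). The remaining gene, Sp100, a PML body protein, was named after its values were seen, because it was the single one above 0: it had 1.81 and 6.09 CPM in Mut-1 and Mut-2, against 1.46 and 1.44 CPM in WT-1 and WT-2. As stated for Blm, this limma fit took no account of how lines of a genotype vary, and it called 0.267% of all genes lower. On line totals Hus1, Xrcc6 and Asf1b did not pass in edgeR (adjusted p = 0.237, 0.228 and 0.220). Once limma had a term for the feeder share, Hus1, Xrcc6 and Asf1b did not pass (adjusted p = 0.228, 0.210 and 0.305).

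**Figure D5:**
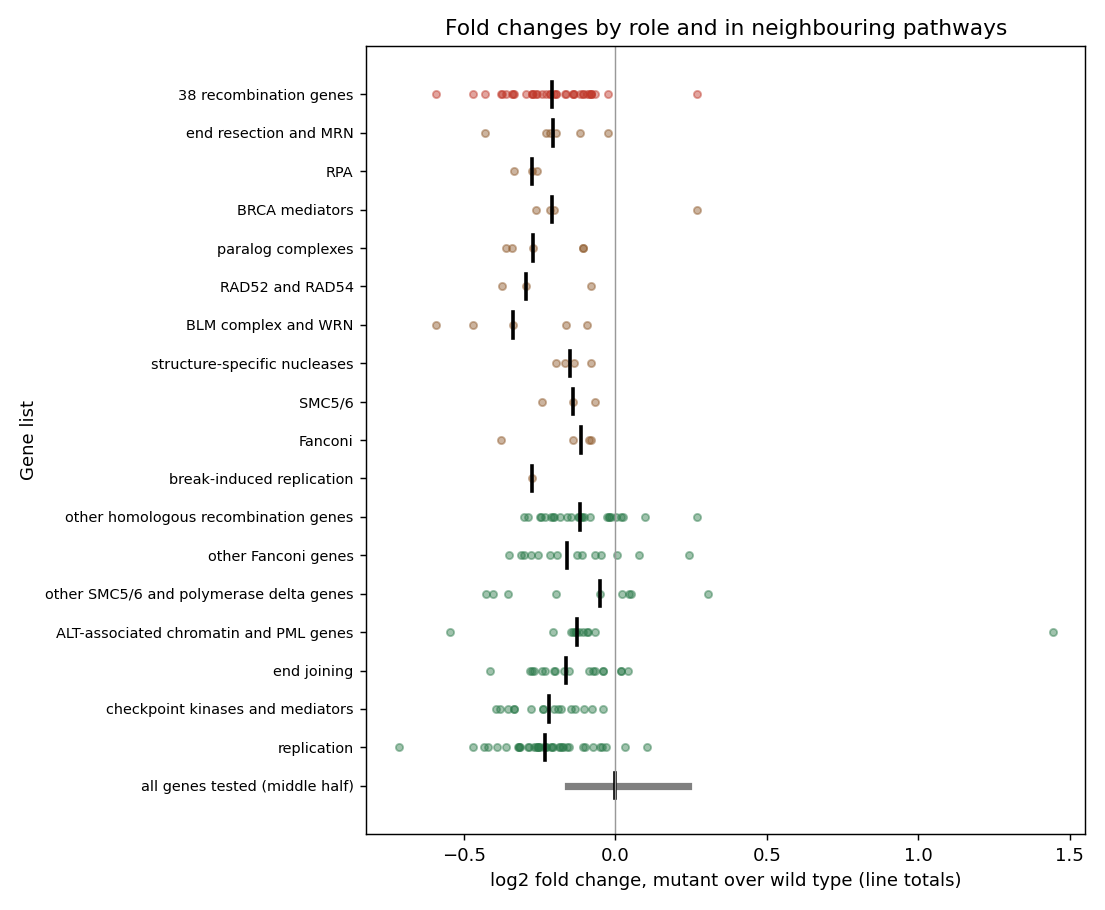
Points are genes, placed by the log2 fold change of the mutant over the wild-type lines in line totals, and black bars are list medians, for the 38 recombination genes, their roles and 7 lists of related pathways. The grey bar spans the middle quartiles of all genes tested, around a median of -0.0016, and the medians of all lists shown lie below 0, from -0.34 to -0.05.

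Promoters were searched for motifs of cell cycle regulated genes in the RefSeq windows of 250 bases before to 50 after each start (GRCm38.p6), which 26 of the 38 genes had, with 30 windows in all. The E2F motif was taken as TTTCCCGC, TTTGGCGC, TTTGCCGC or TTTCGCGC, the CHR element as TTTGAA and the NF-Y box as CCAAT, each on both strands. An E2F motif was in 6 of 30 windows (20%), belonging to 5 genes, against 2.26% of all 32851 windows. CCAAT was in 17 of 30 windows (56.7%), against 37.4% of all windows, and TTTGAA in 4 of 30 (13.3%), against 17.9%. These shares describe letters in a window. Some genes had more than 1 window, and these overlap for Rad54l and Rad51b but not for Rad51c and Rmi1. The 30 bases around each E2F match follow, read along the gene's strand with the match in capitals, since these 5 genes are the carriers of the motif.
Bard1, chr1:71103163-71103192, minus strand: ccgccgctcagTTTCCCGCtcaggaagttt
Brca2, chr5:150522442-150522471, plus strand: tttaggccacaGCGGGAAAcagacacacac
Pold3, chr7:100121467-100121496, minus strand: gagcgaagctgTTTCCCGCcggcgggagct
Rad51c, first start, chr11:87404477-87404506, minus strand: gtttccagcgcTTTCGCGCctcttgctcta
Rad51c, second start, chr11:87404941-87404970, minus strand: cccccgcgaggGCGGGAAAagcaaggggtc
Rmi1, chr13:58402612-58402641, plus strand: ccccgagggagTTTGGCGCgattggaggag
In line totals these 5 genes had log2 fold changes of -0.20 for Bard1, 0.27 for Brca2, -0.28 for Pold3, -0.10 for Rad51c and -0.09 for Rmi1. Of the 10 genes lower at an unadjusted p under 0.05, 7 had a window. Pold3 held an E2F motif and no CCAAT, Dna2 held neither, and Blm, Rad54l, Rpa1, Fanca and Brca1 held between 1 and 2 CCAAT boxes and no E2F motif. The window of Xrcc3 held the most CCAAT boxes of the set, 6.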

How the data were processed

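The authors deposited raw read counts, with a column for each library and a row for each gene symbol. HTSeq 0.6.0, HISAT2 2.1.0, Bowtie2 2.2.3, bcl2fastq and the build GRCm38 are listed in the submitters' processing notes. What each tool did, and which annotation and strand setting were used, is not given in the sources used here. Positions and exon lengths came from GENCODE M21 on GRCm38, matched by symbol for 27405 of 31641 genes and all 38 recombination genes.

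Counts were TMM-normalized and filtered with edgeR's filterByExpr, which all 38 genes passed in each fit. The genotype was tested with edgeR 4.0.16 (R 4.3.3) on line totals, 2 lines against 2, and line pairs in 1 edgeR fit of 12 libraries, with p-values adjusted over all genes and a threshold of 0.05. Alternatives were RLE scaling, no filter, DESeq2 1.42.0, limma 3.58.1 with line as a random block, the feeder share as a covariate, the replicate number as a block, and libraries, lines, feeder-rich libraries or chromosome 14 genes left out. The procedures were tested on simulated counts.

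The genes, lists, motifs and alternatives were chosen with earlier results of these data known. All genes of the set were named, and 1 gene of the other recombination genes is not reported here. Values in every library are given for genes whose mutant and wild-type libraries separated and for those called in a pair of lines. From each other pathway list up to 3 genes called in limma, or else those of smallest p, were eligible.

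Nothing states that libraries of a line are separate cultures, so p-values over libraries may measure technical spread. WT-1 replicates 1 and 2 had a chi-square per degree of freedom of 1.66, against 12.0 to 42.5 for other pairs within lines, and though closer they differed beyond sampling noise and both were kept. Libraries with the same number deviated together in some pairs of lines only. Correlations of deviations from line means were 0.114 to 0.695 for Mut-2 and WT-2 and 0.194 to 0.621 for WT-2 and WT-1. They were 0.139 to 0.493 for Mut-2 and Mut-1 and 0.288 to 0.404 for Mut-1 and WT-2, and these pairs meet the criterion for pairing by number. Mut-1 and WT-1, at -0.130 to 0.217, and Mut-2 and WT-1, at -0.288 to -0.105, do not meet it. The printed fits have no replicate block, which was run as an alternative.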

Additional observations from a re-analysis of the deposited data

Results flagged for a closer look

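Of 76 sets of 6 libraries of a genotype, 1 per gene and genotype, 5 had a single library far from the other 5, and chance alone gives about 1 in 20. Of these 5 values 4 were in WT-2 replicate 1. It had 54.1 CPM of Rad54b, against 28.8 to 37.6 CPM in the other wild-type libraries, and 91.0 CPM of Bard1, against 65.5 to 74.7 CPM. It also had the lowest wild-type values of Brca2, 89.3 CPM against 110 to 116 CPM, and of Gen1, 12.5 CPM against 22.3 to 24.1 CPM. Both directions thus occurred in this library, whose total of 16013579 counts lies within the range of the others. The remaining value was Brca1 in Mut-2 replicate 3, at 123.2 CPM, against 88.0 to 100.3 CPM in the other mutant libraries. No cause of these deviations was tested.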

How the results depend on the processing

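The lower level of the set kept its direction in the alternatives run: the median log2 fold change was -0.24 to -0.17 without any 1 library or line, -0.22 with RLE scaling and with DESeq2, -0.23 with no filter, -0.16 in limma with a feeder term and -0.15 with the 3 most feeder-rich libraries left out. Of the 38 genes 25 changed sign under none of 23 alternatives, 13 under at least 1, and 1 value (Blm in limma) passed the threshold. The number called on line totals was 0 without any 1 library. It was 1 in limma, which was run on the 12 libraries and not on line totals. Separated genes numbered 1 to 5 without any 1 library and 2 without the 3 feeder-rich libraries, where 3% of all genes separated as lower.

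For Mut-1 against WT-1 the number called was 0 to 1 without any 1 library and 1 (Brca2) with no filter. The gene called without 1 library was Dna2, without WT-1 replicate 3, where calls over all genes rose to 447, against 54. With the replicate block the number called was 1 (Brca2, adjusted p = 0.0470 in edgeR), although these lines share only a number, with correlations of -0.130 to 0.217. Over all genes the block moved the calls to 100, against 54. For Mut-2 against WT-2 it was 0 to 1 without any 1 of the 12 libraries (0 without any of its own 6), 2 (Wrn and Rmi2) with no filter, 3 in DESeq2, 0 with the feeder share and 0 without the feeder-rich libraries. The replicate block left Wrn as the 1 gene called, while calls over all genes were 328, against 153. For Mut-2 against Mut-1 it was 0 to 1 without any 1 library, 0 with the feeder share, 0 without the feeder-rich libraries, and 1 with the replicate block. WT-2 against WT-1 and the difference between the pairs had 0 genes of the set called in each alternative. Over all genes, calls on line totals were 0 in edgeR, 1 with RLE scaling, 77 with no filter and 359 in DESeq2, and calls for the 2 mutant against wild-type pairs were 54 and 153, against 543 and 966 with no filter and 215 and 689 in DESeq2. The causes were not tested. Counts were lowest for Rmi2, at 2.81 to 8.43 CPM in mutant and 4.50 to 10.2 CPM in wild-type libraries.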
